A study of Danio rerio with 4 samples.

Results

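The genes described here encode proteins that coat lipid droplets and lipases that break down stored or circulating fat. They are the droplet proteins plin2, plin3 and cidec, the intracellular lipase genes pnpla2 and mgll with the cofactor gene abhd5a, the secreted lipases lipca, lipg and lpl, and angptl4, which encodes an inhibitor of lipoprotein lipase. The 10 genes were chosen by name from the 32058 rows of the count table. Of these, 8 were found under their own name, and plin3 (listed as zgc:77486) and abhd5a (listed as CU856516.1) were found through their Ensembl identifiers. All 10 had enough counts to be tested.

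Lipid droplets store neutral fat under a phospholipid layer that perilipins and CIDE proteins cover. During fasting, adipose triglyceride lipase and its cofactor release the first fatty acid from a stored triglyceride, and monoacylglycerol lipase releases the last. Secreted lipases work outside the cell on lipoproteins, where hepatic and endothelial lipase act largely on phospholipids and remnant particles and lipoprotein lipase acts on triglycerides.

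Livers of fasting zebrafish larvae of the AB strain were compared after treatment with lipofermata, an inhibitor of the fatty acid transporter encoded by slc27a2a, or with the solvent, DMSO, alone. Lipofermata-treated larvae received 5 µM from 4 dpf for 48 h, control larvae received DMSO over the same period, and neither group was fed. At 6 dpf, livers of 30 larvae were pooled for each replicate, with 2 replicates per group, and the labels do not say whether the pools came from separate clutches. The p-values therefore measure the spread between pools, which may be technical, and an exact two-sided permutation test of 2 pools against 2 cannot give a p below 0.333.

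The libraries held 16104812 and 17326660 counts with lipofermata, and 14997821 and 19368695 with DMSO. Levels are CPM, counts brought to a common library size of 1e6 after TMM scaling, which sets a typical gene equal between libraries. These levels are not corrected for transcript length, so they are compared between libraries and not between genes. All 13 hepatocyte markers had at least 8515 counts in every library, as the label of liver implies, and 5 of them fell while 8 did not pass the test, with summed levels of 53334 to 55824 CPM with lipofermata and 71268 to 84257 CPM with DMSO. An EGFP row, a reporter that the labels do not mention, had 495 and 322 CPM with lipofermata, against 818 and 711 CPM with DMSO. Among all tested genes 16.6% rose and 16.9% fell. Of 17 endothelial markers 15 fell, of 9 tested fibroblast and stellate markers 8 fell, and of 6 tested epidermis markers 4 fell. The epidermis markers summed to 119 and 148 CPM with lipofermata, against 544 and 707 CPM with DMSO. For macrophage, muscle and adipocyte markers, 2 of 8, 2 of 4 and 2 of 2 tested fell. No tested neutrophil, acinar pancreas, intestine or erythroid marker fell. Of 5 biliary markers 3 rose (epcam, cldn15lb and krt18a.1, by 2.30-fold, 1.83-fold and 1.36-fold) and sox9b fell, with a list median of 0.44 on the log2 scale. The part of these cell types in the changes described below was not tested. Some libraries of the same group stood apart. The 12 markers of pancreatic acinar cells summed to 10969 and 4911 CPM in lipofermata replicates 1 and 2, and to 4232 and 9611 CPM in DMSO replicates 1 and 2. The 10 macrophage markers found summed to 22.7 and 28.9 CPM in the lipofermata libraries, and to 85.7 and 20.6 CPM in DMSO replicates 1 and 2.

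With lipofermata, 1 droplet protein gene and the genes of hepatic and endothelial lipase rose, and those of lipoprotein lipase and its inhibitor fell. The genes plin2, lipca and lipg rose and lpl and angptl4 fell, while plin3, cidec, pnpla2, abhd5a and mgll did not pass the test (edgeR's quasi-likelihood test, adjusted p under 0.1, n = 2 pools per group). Thus 5 of 10 genes were called, where 33.5% of all 14925 tested genes were called (16.6% rose and 16.9% fell). The calls of lipca, lipg and angptl4 held in each of 11 alternative runs, that of plin2 was lost in 1 and that of lpl in 3. All of these runs reuse the same 4 libraries, so they add no replication. Those that leave out a library have 1 pool in a group. The groups did not overlap for 7 of the 10 genes, against 65.2% of all tested genes, with lipofermata higher for 4 (32.2% of all) and DMSO higher for 3 (32.9% of all). The median log2 fold change of the 10 genes was 0.11, beside -0.03 for all tested genes. Scaling by total counts alone shifted the median of all log2 fold changes up by 0.39. With it 81.2% of the called genes rose, beside 49.5% with TMM, so every direction here is relative to what the other genes did. In bulk tissue, fewer cells of a type and less RNA per cell cannot be told apart.

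**Figure D1:**
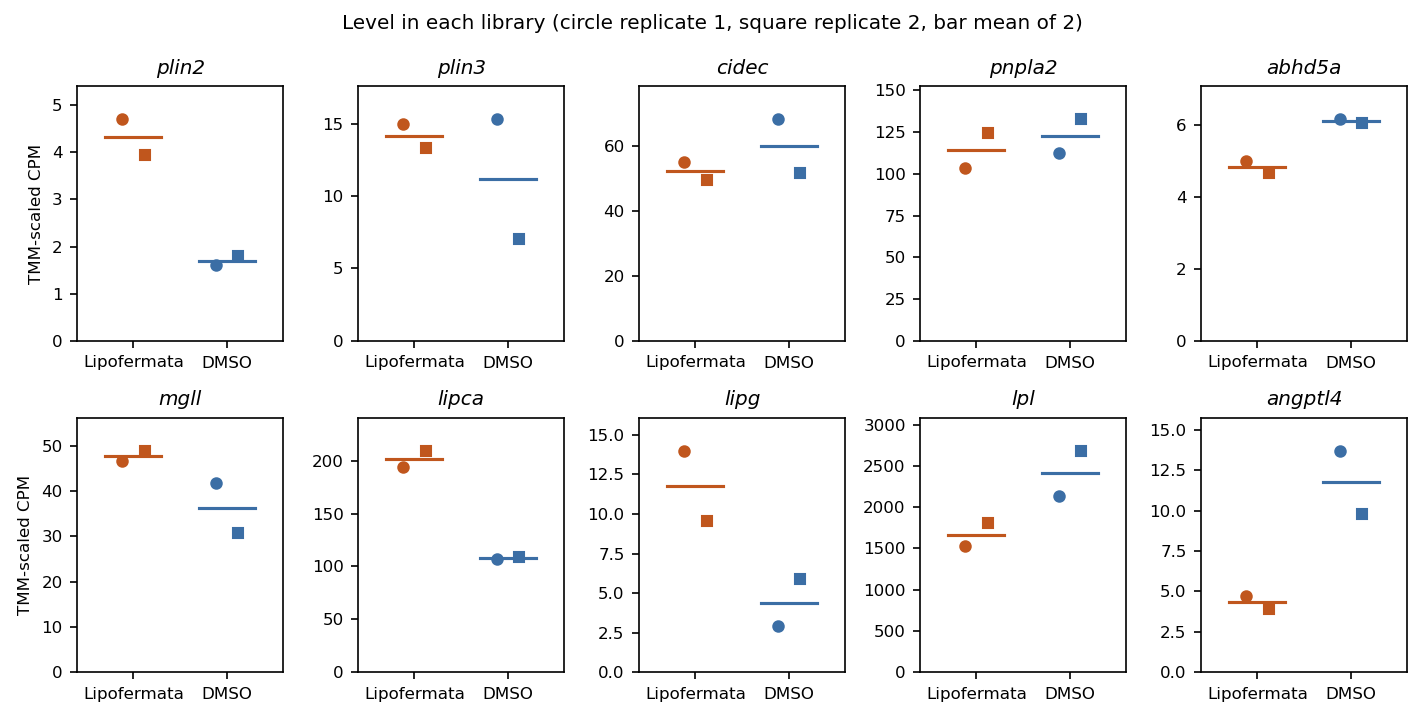
TMM-scaled CPM (vertical axes, each from 0) of the 10 genes in lipofermata and DMSO livers, with circles for replicate 1, squares for replicate 2 and bars for the mean of the 2 libraries. The lipofermata libraries lie above both DMSO libraries for plin2, mgll, lipca and lipg and below them for abhd5a, lpl and angptl4, and the groups overlap for plin3, cidec and pnpla2.

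Among the droplet proteins, plin2 was the one that passed the test. The gene plin2 (ENSDARG00000042332) encodes perilipin 2, the main droplet coat protein of hepatocytes in mammals. It had 94 and 72 counts in the lipofermata libraries, against 29 and 22 counts in the DMSO libraries. After scaling this was 4.70 and 3.94 CPM with lipofermata, against 1.61 and 1.80 CPM with DMSO. Both lipofermata libraries were above both DMSO libraries. Replicate 1 minus replicate 2 was 0.25 with lipofermata and -0.15 with DMSO on the log2 scale. In size, these gaps were larger than those of 56.5% and 28.1% of all tested genes. The rise was 2.54-fold (95% interval 1.46 to 4.44), or 1.35 on the log2 scale (standard error 0.36), with an adjusted p of 0.0219 in edgeR's quasi-likelihood test. Without lipofermata replicate 1, in a fit that leaves 1 lipofermata pool, the log2 fold change was 1.22 and the gene did not pass.

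The gene plin3 (ENSDARG00000013711) encodes perilipin 3, a coat protein that in mammals moves from the cytosol onto newly formed droplets. It had 15.0 and 13.3 CPM in the lipofermata libraries, against 15.3 and 7.02 CPM in DMSO replicates 1 and 2. The lipofermata libraries lay near DMSO replicate 1 and exceeded DMSO replicate 2, so the groups overlapped. The log2 fold change was 0.32 (standard error 0.30, adjusted p = 0.468), with a fold interval of 0.792 to 1.97. This value rested on the DMSO libraries, since it was 1.02 without DMSO replicate 1 and -0.11 without DMSO replicate 2. Each of these fits leaves 1 DMSO pool, whose spread is then not measured. The gap between the DMSO replicates, 1.11 on the log2 scale, was larger than that of 92.6% of all tested genes. The macrophage markers had a gap of the same sign, with a median of 1.81 between DMSO replicates 1 and 2 over 8 tested markers. Muscle (0.90), adipocyte (0.68), intestine (0.36), neutrophil (0.24), endothelial (0.19) and fibroblast and stellate (0.01) markers had that sign too. Medians of the hepatocyte, biliary, acinar pancreas, epidermis and erythroid markers had the opposite sign. Between lipofermata replicates 1 and 2 the gap of plin3 was 0.17. There the medians of macrophage (-0.51), muscle (-0.39), intestine (-0.16), neutrophil (-1.55) and fibroblast and stellate (-0.48) markers were below 0. Those of adipocyte (0.09) and endothelial (0.05) markers were above 0. The part of any of these cell types in the level of plin3 was not tested.

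The gene cidec (ENSDARG00000059651) encodes a CIDE protein that in mammals moves fat from smaller to larger droplets. It had 55.0 and 49.4 CPM with lipofermata, against 68.1 and 51.6 CPM with DMSO. Both lipofermata values lay near the lower DMSO value, in replicate 2. The difference was within the spread of the replicates, at -0.20 on the log2 scale (standard error 0.16, adjusted p = 0.406) and a fold interval of 0.677 to 1.12. In fits that leave 1 DMSO pool, the log2 fold change was -0.38 without DMSO replicate 2 and 0.02 without DMSO replicate 1. The perilipin of adipocytes, plin1, had 2 and 4 counts with lipofermata and 2 and 0 counts with DMSO, and the adipokine gene adipoqb had 0 counts in every library. Both belong to a list of 7 adipocyte markers, of which 2 were tested and fell. The 7 summed to 9.69 and 7.72 CPM with lipofermata and to 32.3 and 19.8 CPM with DMSO.

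None of pnpla2, abhd5a and mgll passed the test, at adjusted p values of 0.667, 0.384 and 0.113 in edgeR's quasi-likelihood test, with mgll at an unadjusted p of 0.0398. The gene pnpla2 (ENSDARG00000089390) encodes adipose triglyceride lipase, the first enzyme of lipolysis. It had 104 and 124 CPM with lipofermata, against 113 and 133 CPM with DMSO, so the groups overlapped. The log2 fold change was -0.11 (standard error 0.16, adjusted p = 0.667), and the interval of the fold, 0.731 to 1.18, leaves out a change of 1.5-fold in either direction. Its sign was positive without lipofermata replicate 1 (0.02), without DMSO replicate 2 (0.02) and with total-count scaling (0.29).

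The gene abhd5a (ENSDARG00000099189) encodes the counterpart of CGI-58, which in mammals binds perilipins at rest and activates adipose triglyceride lipase once released. It had 5.00 and 4.66 CPM in the lipofermata libraries, against 6.15 and 6.04 CPM in the DMSO libraries. Although the groups did not overlap, the difference did not pass the test (log2 fold change -0.34, standard error 0.26, adjusted p = 0.384, fold interval 0.528 to 1.19), and with total-count scaling it was 0.05. The paralog abhd5b had 0 counts in all 4 libraries.

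The gene mgll (ENSDARG00000036820) encodes monoacylglycerol lipase, the last enzyme of lipolysis. It had 46.6 and 48.9 CPM with lipofermata, against 41.8 and 30.7 CPM with DMSO. Both lipofermata libraries were higher than both DMSO libraries, and the DMSO libraries lay further apart than the lipofermata libraries. The log2 fold change of 0.39 (standard error 0.17, fold interval 1.02 to 1.69) was just outside the threshold (adjusted p = 0.113 in edgeR's quasi-likelihood test). In fits that leave 1 DMSO pool, the log2 fold change was 0.64 without DMSO replicate 1 and 0.19 without DMSO replicate 2. With the replicate number as a block it passed (0.41, adjusted p = 0.0605), as it did with total-count scaling, limma voom and no filter on low counts.

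**Figure D2:**
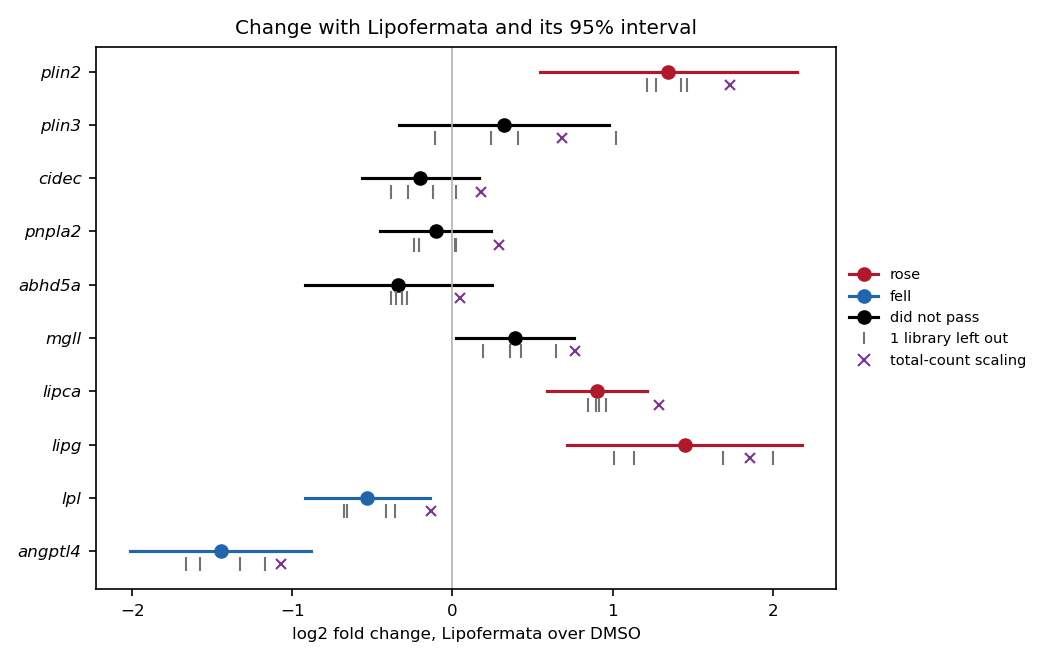
Log2 fold change of lipofermata over DMSO (horizontal axis) for each of the 10 genes, with the 95% interval as a line, the value after leaving out each library in turn as grey ticks and the value with total-count scaling as a purple cross. The values of plin2, lipca and lipg stay above 0 and those of lpl and angptl4 below 0 under each of these settings, whereas plin3, cidec and pnpla2 cross 0 when a library is left out.

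The secreted lipases changed in opposite directions, with the call of lpl lost in 3 of 11 alternatives. The gene lipca (ENSDARG00000053476) encodes hepatic lipase, which hepatocytes secrete and which acts on remnant particles and high-density lipoproteins. It had 194 and 209 CPM with lipofermata, against 107 and 109 CPM with DMSO. The groups were far apart for the spread within each, which was 11 CPM with lipofermata and 1.56 CPM with DMSO (SD, n = 2 pools). The rise was 1.87-fold (95% interval 1.51 to 2.32), or 0.90 on the log2 scale (standard error 0.14), with an adjusted p of 0.00157. It passed in each of 11 alternatives, with log2 fold changes of 0.85 to 1.29. All 13 hepatocyte markers had a log2 fold change below 0 in the same comparison, with a median of -0.32, and whether this bears on lipca was not tested.

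The gene lipg (ENSDARG00000031044) encodes endothelial lipase, a phospholipase of high-density lipoproteins that in mammals is made by endothelial cells and also by hepatocytes. It had 14.0 and 9.53 CPM in lipofermata replicates 1 and 2, against 2.94 and 5.88 CPM in DMSO replicates 1 and 2. Each group spread widely, but the lowest lipofermata library exceeded the highest DMSO library. The rise was 2.73-fold (95% interval 1.64 to 4.55), or 1.45 on the log2 scale (standard error 0.33), with an adjusted p of 0.0106. It passed in each of 11 alternatives, and ranged between 1.010 without DMSO replicate 1 and 2.00 without DMSO replicate 2. In the same livers, the 17 endothelial markers summed to 248 and 233 CPM with lipofermata, against 897 and 805 CPM with DMSO, and none of them rose. Within each group lipg was higher in the library with more acinar pancreas markers. No other marker list had sums in this order in both groups. None of the 12 acinar pancreas markers rose or fell with lipofermata, and their median was 0.10 on the log2 scale. These markers summed to 10969 and 4911 CPM in lipofermata replicates 1 and 2, and to 4232 and 9611 CPM in DMSO replicates 1 and 2. The part of these markers in the level of lipg was not tested.

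The gene lpl (ENSDARG00000087697) encodes lipoprotein lipase, which releases fatty acids from circulating triglycerides and in adult mammals is made mainly in muscle and fat. It had 1527 and 1806 CPM with lipofermata, against 2133 and 2682 CPM with DMSO. Both lipofermata libraries were below both DMSO libraries, by a gap smaller than that between the DMSO replicates. The level was 1.44-fold lower, which is -0.53 on the log2 scale (standard error 0.18), with an adjusted p of 0.0497. The fall did not pass with total-count scaling (-0.13, adjusted p = 0.437), without lipofermata replicate 1 (-0.41) or without lipofermata replicate 2 (-0.66). The fits without a lipofermata replicate leave 1 lipofermata pool. Of 9 muscle markers, 4 had enough counts to be tested and 2 of these fell (mylpfa and actc1b), with a median of -1.97 on the log2 scale over the 4, and 2 had no count in any library. The 9 summed to 2.60 and 2.57 CPM with lipofermata and to 11.6 and 4.00 CPM with DMSO. Of the 7 adipocyte markers both tested ones fell, with sums of 9.69 and 7.72 CPM with lipofermata and 32.3 and 19.8 CPM with DMSO, while adipoqb and lepb were at 0 counts throughout, and the part of muscle and adipocyte RNA in the level of lpl was not tested.

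The gene angptl4 (ENSDARG00000035859) fell as well. It encodes a secreted protein that inactivates lipoprotein lipase and that fasting induces in several mammalian tissues. It had 94 and 72 counts in the lipofermata libraries, against 247 and 120 counts in the DMSO libraries. The counts with lipofermata happen to equal those of plin2, whereas the DMSO counts of the 2 genes differ. This was 4.70 and 3.94 CPM with lipofermata, against 13.7 and 9.80 CPM with DMSO, with no overlap. The level was 2.73-fold lower, which is -1.45 on the log2 scale (standard error 0.26), with an adjusted p of 0.00299. The fall passed in each of 11 alternatives, with values of -1.66 to -1.07. DMSO replicate 1 had the highest level of angptl4 and the highest sums of macrophage, endothelial, adipocyte and muscle markers. Sums of the other marker lists were highest in other libraries. The macrophage markers summed to 85.7 CPM in DMSO replicate 1, to 20.6 CPM in DMSO replicate 2, and to 22.7 and 28.9 CPM with lipofermata. Without DMSO replicate 1, in a fit that leaves 1 DMSO pool, the log2 fold change of angptl4 was -1.17. The part of any of these cell types in this fall was not tested.

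Ratios of counts within a library do not depend on how libraries are scaled to each other. The ratio of lipca to lpl was 0.127 and 0.116 with lipofermata, against 0.05003 and 0.0406 with DMSO, 2.69-fold higher. The ratio of plin2 to angptl4 was 1 in both lipofermata libraries, against 0.117 and 0.183 in the DMSO libraries, 6.82-fold higher. Both of these pairs were chosen after their values were seen. The ratio of lpl to its inhibitor angptl4 was 325 and 458 with lipofermata, against 156 and 274 with DMSO, 1.87-fold higher. The groups did not overlap, and the counting intervals of lipofermata replicate 1 (265 to 402) and DMSO replicate 2 (229 to 330) did. The ratio of mgll to pnpla2 was 0.449 and 0.393 with lipofermata, against 0.371 and 0.232 with DMSO. Here too the groups did not overlap, but the counting intervals of lipofermata replicate 2 (0.363 to 0.425) and DMSO replicate 1 (0.341 to 0.404) did. The ratio of plin2 to plin3 was 0.313 and 0.296 with lipofermata, against 0.105 and 0.256 with DMSO, where DMSO replicate 2 lay inside the counting interval of both lipofermata libraries. For lipg to lipca (0.0722 and 0.0456, against 0.0275 and 0.0540 with DMSO) and abhd5a to pnpla2 (0.0482 and 0.0375, against 0.0546 and 0.0456 with DMSO) the groups overlapped.

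**Figure D3:**
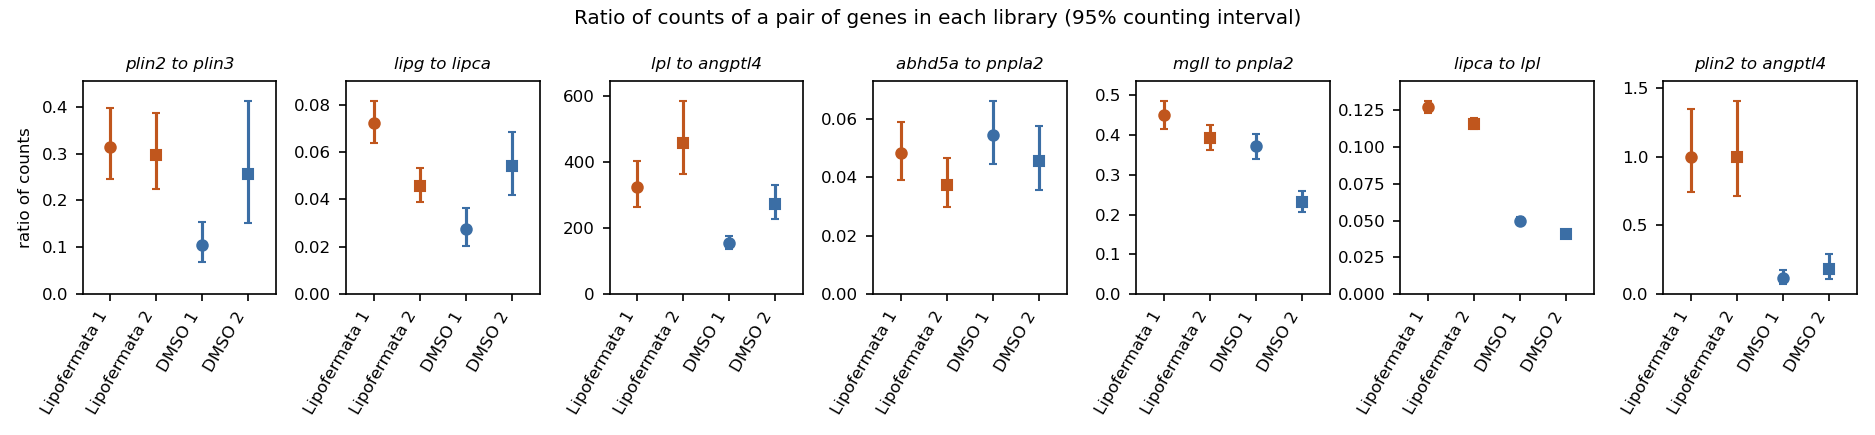
Ratio of the counts of 2 genes (vertical axes, each from 0) in lipofermata replicates 1 and 2 and DMSO replicates 1 and 2, with the 95% exact binomial interval, which covers counting error only. The ratios of lipca to lpl and of plin2 to angptl4, pairs chosen after their values were seen, are apart between the groups by more than the intervals. Those of lipg to lipca and abhd5a to pnpla2 overlap. For lpl to angptl4, mgll to pnpla2 and plin2 to plin3, intervals of the groups overlap.

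Related genes were followed in 5 lists of 132 names, of which 107 genes were tested. In these lists 20 genes rose, 19 fell and 68 did not pass, close to the shares of all tested genes, with a median log2 fold change of -0.06. Without lipofermata replicate 1, 10 rose and 4 fell, without lipofermata replicate 2, 10 rose and 7 fell, with total-count scaling 41 rose and 4 fell, and with DESeq2 16 rose and 11 fell. Of the list genes named below, 8 passed in every alternative, namely ldah, abhd16a, abhd4, sirt1, foxo3a, hadhab, cpt1ab and cpt2. Of all tested genes 16.6% rose and 16.9% fell. By list, these shares were 13.3% and 6.7% for droplet coat, formation and size, and 8% and 24% for intracellular lipases. They were 15.8% and 21.1% for secreted lipases, 19.0% and 33.3% for PPAR, FOXO and fasting regulators, and 33.3% and 3.7% for PPAR targets.

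Of 15 other genes of droplet coat, formation and size, 2 rose, 1 fell and 12 did not pass, and with total-count scaling 6 rose. The genes that rose were ldah (log2 fold change 1.43, and 2.64 without DMSO replicate 1 and 0.85 without DMSO replicate 2), which encodes a droplet-associated hydrolase, and vmp1 (0.55), a membrane protein of droplet and autophagosome formation that did not pass without lipofermata replicate 1. The CIDE gene cideb was at -0.52 and passed, except with total-count scaling, with DESeq2, without lipofermata replicate 2 and without DMSO replicate 1. The droplet assembly genes bscl2 (seipin) and fitm2 did not pass, at -0.14 and 0.24.

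Of 25 other intracellular lipases and cofactors, 6 fell, 2 rose and 17 did not pass, with a median of -0.33 on the log2 scale. With total-count scaling the balance turned, and 7 rose and 2 fell. The lysophospholipase genes pnpla7b (-0.77) and pnpla6 (-0.50) fell. So did the deacetylase gene aadac (-2.22), which had 6 and 6 counts with lipofermata, against 38 and 10 counts with DMSO. The call was lost without lipofermata replicate 1 for all of these, without lipofermata replicate 2 for pnpla6 and aadac, without DMSO replicate 1 and with DESeq2 for aadac, and with total-count scaling for pnpla6. The gene pnpla3, which encodes a droplet-bound relative of adipose triglyceride lipase, was picked after its values were seen. It had 48.2 and 54.0 CPM with lipofermata, against 59.21 and 79.0 CPM with DMSO. It fell by 0.43 on the log2 scale (adjusted p = 0.0827 in edgeR's quasi-likelihood test). Its call was lost with total-count scaling (-0.03), with DESeq2 (-0.41), with the filter at 0.5 CPM (-0.42), or without lipofermata replicate 1 (-0.35), lipofermata replicate 2 (-0.52) or DMSO replicate 2 (-0.21). The phospholipid hydrolase genes abhd16a (0.80) and abhd4 (0.74) rose. The hormone-sensitive lipase genes lipea and lipeb, which act between the enzymes of pnpla2 and mgll, were at -0.48 and -0.43 and did not pass (adjusted p = 0.224 and 0.278). The lysosomal acid lipase gene lipa, listed in the table as lipf, was at 0.19 and g0s2, an inhibitor of adipose triglyceride lipase in mammals, was at 0.22, and neither passed. Without lipofermata replicate 2, 2 genes of this list fell, and without lipofermata replicate 1 none passed as lower, with 1 lower at an unadjusted p under 0.05.

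Of 19 other secreted lipases and regulators, 4 fell, 3 rose and 12 did not pass. With total-count scaling 8 rose and none passed as lower (none at an unadjusted p under 0.05 either), and with DESeq2 2 fell and none passed as higher (3 at an unadjusted p under 0.05). Without lipofermata replicate 1, 1 rose and 1 fell, and without lipofermata replicate 2, 2 rose and 1 fell. The gene lmf1 (0.67), whose product in mammals is needed for these lipases to fold, and its relative lmf2b (0.99) rose, as did the sorting receptor gene sort1b (0.95). None of these 3 passed with DESeq2, and each lost its call without 1 or both lipofermata replicates. The paralog of sort1b, sort1a, picked after its values were seen, had 1.099 and 1.75 CPM with lipofermata, against 2.55 and 4.08 CPM with DMSO. It fell by 1.20 on the log2 scale (adjusted p = 0.080 in edgeR's quasi-likelihood test). Its call was lost with total-count scaling (-0.80), with DESeq2 (-1.19), or without lipofermata replicate 1 (-0.90), lipofermata replicate 2 (-1.57) or DMSO replicate 2 (-0.84). The gene pla2g12b (-0.59), of the secreted phospholipase family, and the proprotein convertase gene pcsk6 (-0.90) fell. Neither passed with total-count scaling or without lipofermata replicate 1 or 2. For pcsk6, this was also so with DESeq2 and without DMSO replicate 1, and for lmf2b without DMSO replicate 2. The activator gene of lipoprotein lipase, apoc2, did not pass (0.21, adjusted p = 0.338).

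As a list, the PPAR, FOXO and fasting regulators did not move one way. Of 21 tested PPAR, FOXO and fasting regulators, 7 fell, 4 rose and 10 did not pass, whereas with total-count scaling 2 fell and 6 rose. The deacetylase gene sirt1 (-0.92), foxo3a (-1.04) and foxo1a (-0.55), forkhead factors of the fasting response, fell, and the last did not pass with total-count scaling or without lipofermata replicate 1. The paralog foxo3b (0.42), the coactivator gene ppargc1b (0.48) and creb3l3a (0.88), a membrane-bound factor that regulates lipase cofactors in mouse liver, rose, and each lost its call when lipofermata replicate 1 or 2 was dropped. Without DMSO replicate 1 ppargc1b did not pass either, nor did creb3l3a with DESeq2. Of 27 tested PPAR target genes of fatty acid use, 9 rose, 1 fell and 17 did not pass, with a median log2 fold change of 0.12. Without lipofermata replicate 2, 4 rose, and with total-count scaling 14 rose. Those that rose include cpt1ab (1.70) and cpt2 (1.53), which carry fatty acids into mitochondria, and the oxidation gene hadhab (1.20), while pdk2a, a kinase that restrains pyruvate oxidation, fell (-0.66) but did not pass with total-count scaling or without either lipofermata replicate. Within the same list pdk4 (-0.34) and acadm (-0.14) did not pass.

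**Figure D4:**
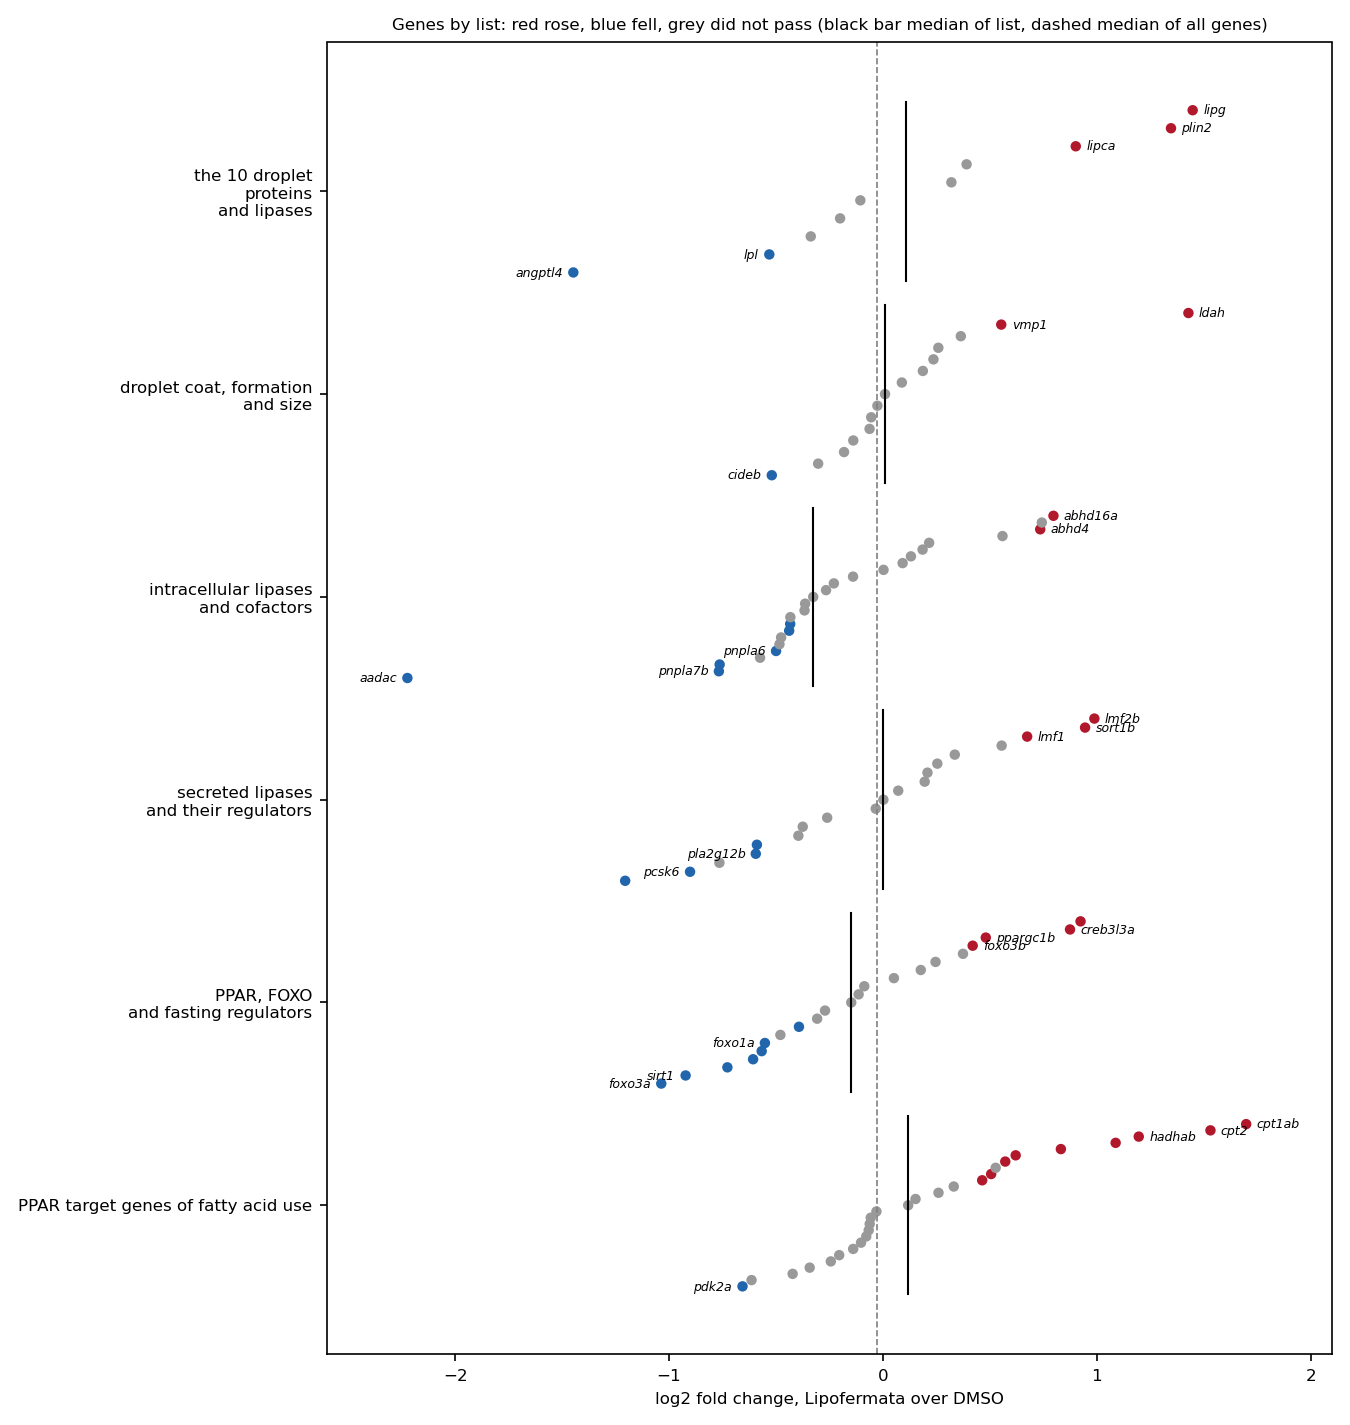
Log2 fold change of lipofermata over DMSO (horizontal axis) for each tested gene of the 10 droplet proteins and lipases and of 5 related lists, with red for genes that rose, blue for genes that fell and grey for those that did not pass, a black bar at the median of each list and a dashed line at the median of all tested genes. The list medians lie between -0.33 and 0.12.

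The target of the drug, slc27a2a (ENSDARG00000036237), had 682 and 729 CPM with lipofermata, against 1112 and 1512 CPM with DMSO, and fell by 0.89 on the log2 scale (standard error 0.18, adjusted p = 0.00547), which passed in each of 11 alternatives. Genes with the most similar profile were taken from 8447 named genes with a mean of at least 5 CPM, by the distance between log2 CPM profiles centred over the 4 libraries. For plin2 they were anapc1, psma4 and tmed3 (distances 0.058 to 0.114), for lipg fancd2, mmp15b and icn (0.286 to 0.410), and for angptl4 ponzr1, rps6ka3b and nid1b (0.114 to 0.135). With 4 libraries in 2 groups, such likeness mostly restates the difference between the groups.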

How the data were processed

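RNA from livers of fasting zebrafish larvae was measured in 4 libraries, 2 with lipofermata and 2 with DMSO. The submitters' processing notes name HISAT2, featureCounts and the GRCz11 build, and the deposited values are whole, unscaled counts per gene made by the authors. No source used here gives the versions, annotation release or strand setting, so reads of overlapping genes may not be separated. Names that occur more than once (530) stand for the identifier with the most counts, and 28 rows carry no name. Of the 252 listed names, 12 were not found. The chosen genes and lists were set with earlier results of these data known.

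The packages were edgeR 4.0.16, DESeq2 1.42.0 and limma 3.58.1 under R 4.3.3, with matplotlib 3.10.9 under Python 3.11.15 for the plots. The filterByExpr function (minimum count 10) chose the genes, and library sizes were corrected by TMM, a trimmed mean of log ratios between libraries (factors 1.16 and 1.13 with lipofermata, 0.932 and 0.817 with DMSO) before comparison by edgeR's quasi-likelihood test in a model of treatment alone. Benjamini-Hochberg adjustment ran across the 14925 tested genes, and the call was an adjusted p under 0.1, the rate the study's methods use. Those methods applied it in the iDEP tool with default settings rather than in this test, so the calls here are not the study's own. Standard errors are the log2 fold change divided by the square root of F, and 95% intervals use the test's degrees of freedom. Between replicates the chi-square per degree of freedom was 12.7 with lipofermata and 21.7 with DMSO, so counts spread more widely than counting error. Scripts were tested on simulated data. Genes were named by a rule: the 10 genes, slc27a2a, up to 3 genes per list and direction with the smallest p, and 3 profile neighbours for each of plin2, lipg and angptl4; other list genes named were chosen after their values were seen. The alternatives were DESeq2's size factors, total counts, DESeq2, limma voom, no filter, a filter at 0.5 CPM in 1 library, each library left out and a replicate block. Lengths and sequences of the genes were not used here. Some genes that the naming rule would list are not reported here.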

Additional observations from a re-analysis of the deposited data

How the results depend on the processing

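Of the 10 genes, lipca, lipg and angptl4 kept their direction and passed in each of 11 alternatives. With total counts in place of TMM, the signs of abhd5a (0.049), cidec (0.18), pnpla2 (0.29), acadm (0.26), bscl2 (0.25) and pdk4 (0.044) were positive, fitm2, lipa and apoc2 also passed as higher, 4 of the 10 genes rose and 1 fell, 41 genes of the related lists rose and 4 fell, and of all genes 5092 rose and 1182 fell. DESeq2 called 11 genes of the related lists as lower. With 1 library left out, the lone sample of its group is assumed to vary like the others. Over these 4 settings, 2 to 5 of the 10 genes rose and 1 to 3 fell, 10 to 22 genes of the related lists rose and 4 to 25 fell, and 1128 to 3115 of all genes rose and 1284 to 2898 fell. The log2 fold changes that crossed 0 had ranges of -0.11 to 1.02 for plin3, -0.38 to 0.024 for cidec (its highest without DMSO replicate 1) and -0.24 to 0.022 for pnpla2, which was above 0 without lipofermata replicate 1 (0.022) and without DMSO replicate 2 (0.017). With the replicate number as a block, 4 of the 10 genes rose and 2 fell, with mgll as the one that changed its call, and of all genes 2756 rose and 2724 fell. The deviations of same-numbered libraries had a correlation of 0.03 over genes. The labels do not say whether a number marks a clutch or day, so whether same-numbered samples share one is not known. Among the 10 genes, plin2 had the fewest counts in a library, 22, which limits the precision of its change.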
